A study of Homo sapiens with 8 samples.

Results

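The genes followed here are 10 members of the S100 family of calcium-binding proteins, *S100A2*, *S100A4*, *S100A6*, *S100A8*, *S100A9*, *S100A11*, *S100A13*, *S100A14*, *S100A16* and *S100P*. They were taken by name, through the RefSeq accession of each array probe, from the 22439 genes that could be named on the array. *S100A11* had 2 probes and each other member had 1, so that 11 of 58201 probes are described.

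The series holds 8 two-color Agilent expression arrays of lung cancer cell lines. In each, RNA of treated cells was labeled with Cy5 (red) and RNA of control cells of the same line with Cy3 (green). *miR-150-3p*, the passenger strand of pre-*miR-150*, was transfected into the lines SK-MES-1 and EBC-1, both from lung squamous cell carcinoma, with 1 array each. SBC-3 cells, from small cell lung cancer, received 1 of 3 siRNAs against *DONSON* (siDONSON-1, siDONSON-2 and siDONSON-3), a gene of the DNA replication fork, with 1 array each. A549 cells, from lung adenocarcinoma, had *LOXL2*, which encodes a lysyl oxidase of the extracellular matrix, edited with CRISPR/Cas9 in samples named A549-GE1, A549-GE2 and A549-GE3. Transfections used Lipofectamine RNAiMAX, and their controls are labeled both as mock and as not transfected. The A549 control had no genome editing. The labels do not say whether A549-GE1 to A549-GE3 are clones, whether arrays of a line share a control RNA, or how long cells were cultured after transfection.

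S100 proteins are small proteins that bind calcium through paired EF-hand motifs and mostly work as dimers. Calcium binding opens a surface on which they hold target proteins such as annexins and myosin. Some are also secreted and then bind receptors such as RAGE (*AGER*) and TLR4. Most of the genes lie side by side on chromosome 1 next to the epidermal differentiation complex, the region that holds the genes of the cornified envelope. In squamous epithelium, *S100A8* and *S100A9*, the subunits of calprotectin, are known to rise in stressed or inflamed keratinocytes. *S100A2* is found in basal epithelial cells, *S100A4* is linked to motility through nonmuscle myosin, and *S100P*, first found in placenta, binds ezrin.

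The promoters of 4 members are shown, those of *S100A2* and *S100A4*, which were lower with siDONSON, and those of *S100A8* and *S100A9*, which had ratios of 1.90 and 2.12 in EBC-1. Each window runs from 250 bases before to 50 bases after a RefSeq start site (GRCh38.p14), 5′ to 3′ on the strand of the gene. Capitals mark TATAAA, the core of the TATA box, and TGANTCA, the AP-1 site. *S100A9* is at chr1:153357604-153357903 on the plus strand. *S100A8* (the middle of its 3 listed start sites) is at chr1:153391024-153391323, *S100A4* at chr1:153545757-153546056 and *S100A2* (the upstream of its 2) at chr1:153565795-153566094, all on the minus strand.
S100A8: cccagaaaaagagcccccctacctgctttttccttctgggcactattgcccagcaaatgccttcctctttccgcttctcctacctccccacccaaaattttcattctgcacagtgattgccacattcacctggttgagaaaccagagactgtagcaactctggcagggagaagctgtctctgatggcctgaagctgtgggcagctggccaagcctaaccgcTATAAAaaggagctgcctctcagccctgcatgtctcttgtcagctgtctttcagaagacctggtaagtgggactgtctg
S100A9: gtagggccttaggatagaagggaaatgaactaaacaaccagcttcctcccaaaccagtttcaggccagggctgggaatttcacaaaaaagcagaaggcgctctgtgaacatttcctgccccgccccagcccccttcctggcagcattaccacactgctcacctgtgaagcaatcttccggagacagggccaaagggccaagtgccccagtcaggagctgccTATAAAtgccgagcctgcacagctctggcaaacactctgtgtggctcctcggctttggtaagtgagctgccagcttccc
S100A4: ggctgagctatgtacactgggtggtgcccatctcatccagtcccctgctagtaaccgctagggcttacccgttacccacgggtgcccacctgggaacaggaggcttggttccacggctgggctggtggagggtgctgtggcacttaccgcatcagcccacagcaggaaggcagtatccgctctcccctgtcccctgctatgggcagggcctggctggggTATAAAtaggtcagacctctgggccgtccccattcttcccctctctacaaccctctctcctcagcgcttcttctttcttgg
S100A2: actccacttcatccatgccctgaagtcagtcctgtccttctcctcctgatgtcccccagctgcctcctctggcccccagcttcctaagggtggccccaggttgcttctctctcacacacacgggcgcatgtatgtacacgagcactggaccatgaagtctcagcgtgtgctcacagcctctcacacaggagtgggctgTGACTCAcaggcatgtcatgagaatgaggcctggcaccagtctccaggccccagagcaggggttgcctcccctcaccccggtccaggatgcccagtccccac

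All 10 members had a window in the table, 16 windows in all because some have several start sites. TATAAA on either strand was found in 6 of these 16 windows, and in 11.5% of all 35116 promoter windows. A pair of these 6 are overlapping windows of *S100A8* that hold the same TATAAA, so that 5 members have the motif. In 5 of the 16 it lay forward and began 20 to 40 bases before the start site, against 2.3% of all windows. These 5 are 1 window each of *S100A4*, *S100A8*, *S100A9*, *S100A13* and *S100P*, where it began 31, 29, 29, 29 and 28 bases before the start. TGANTCA was found in 1 member window, that of *S100A2*, 52 bases before the start, and in 7.71% of all windows. A match only says that these letters are in the window.

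A log2 ratio of red over green below 0 means a lower level in the treated cells. A gene has a value on an array where the software put a probe well above background in green, in red or in both. The error in parentheses after a single array's value is the one that the scanner software's error model gives that ratio, and it covers the technical noise of an array only. Groups were compared with limma, with Benjamini-Hochberg adjustment over all genes tested and a threshold of 0.05. Arrays differed by siRNA or by cell line and no label gives separate cultures, so p-values measure only the spread between these arrays. There was no dye swap, and a dye bias of single genes is not removed. The targeted genes were lower in their arrays. *DONSON* had log2 ratios of -2.15, -1.79 and -2.11 with siDONSON-1, -2 and -3 (mean -2.02, adjusted p = 0.00168), and *LOXL2* had -2.49, -2.67 and -2.59 in A549-GE1, -2 and -3 (mean -2.58, adjusted p = 0.00126). On the 8 arrays, 38.7% to 44.1% of probes were well above background in green and 46.3% to 54.4% in red, and no spot was saturated (0). The number of arrays limits the precision.

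**Figure D1:**
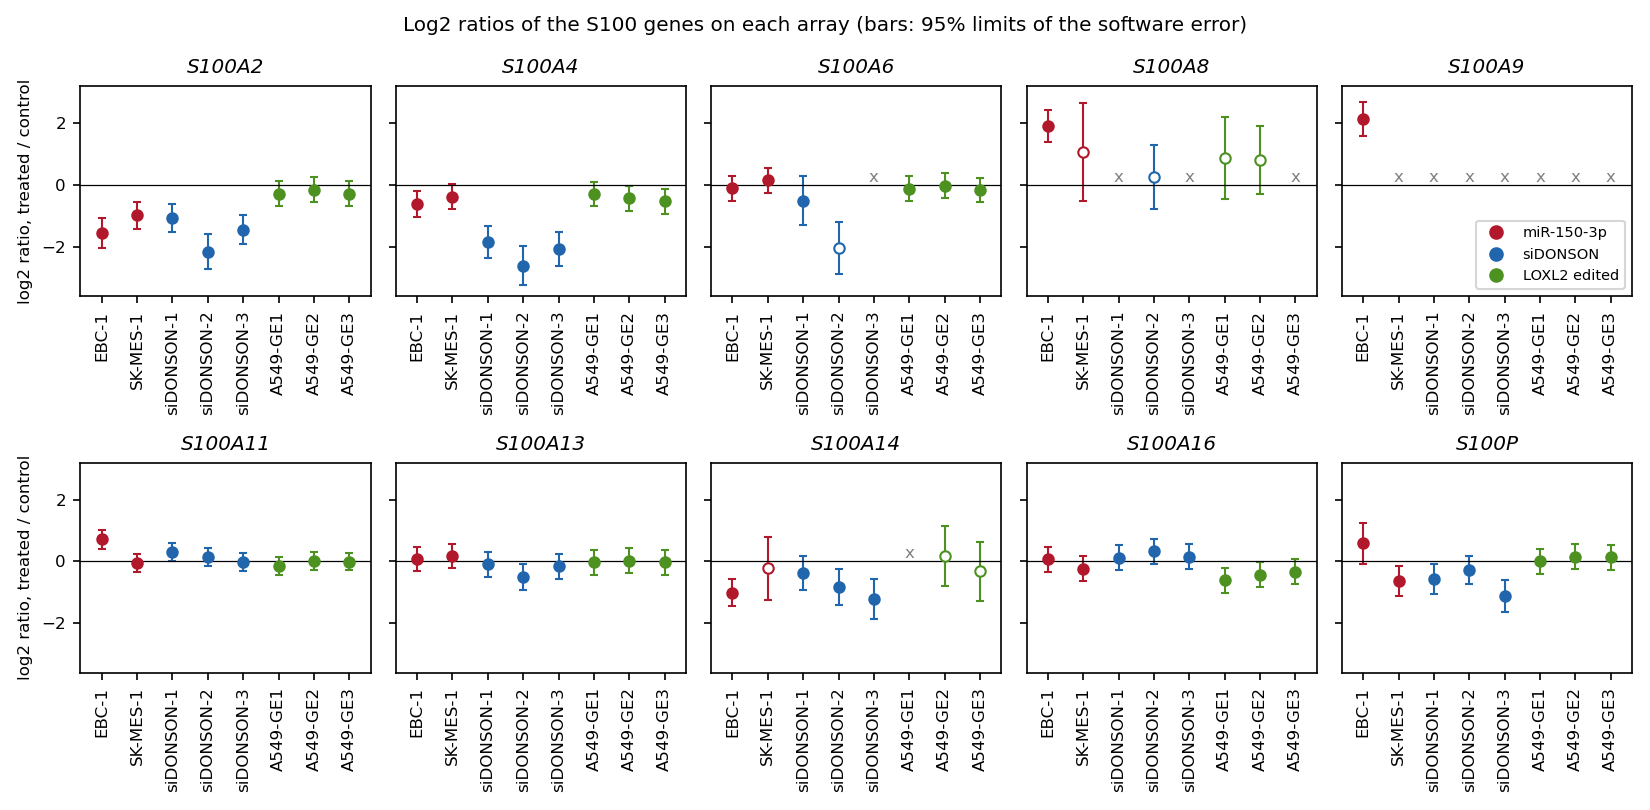
Log2 ratio of treated over control RNA (y axis) on each of the 8 arrays (x axis) for the 10 S100 genes. Points are single arrays, bars are the 95% limits of the software error, open points have a channel that was not well above background, and x marks an array with no value. *S100A4* lies between -2.61 and -1.86 on the 3 siDONSON arrays and between -0.63 and -0.29 on the other 5, and *S100A9* has a value in EBC-1 only.

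In the squamous lines, *S100A2* was lower after *miR-150-3p* transfection (2.41-fold, n = 2). In EBC-1, the one of these lines where *S100A8* and *S100A9* were well above background in the control, their log2 ratios were 1.90 and 2.12. In bulk RNA, fewer cells with a transcript and less of it per cell cannot be told apart.

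*S100A2*, whose product is a mainly nuclear S100 protein, had log2 ratios of -0.99 (0.22) in SK-MES-1 and -1.55 (0.25) in EBC-1. The processed intensity was 4572 in the control and 1565 in the transfected EBC-1 cells, and 72260 and 36480 in SK-MES-1. Both arrays lay below 0 beyond the 95% limits of the software error. The group mean was -1.27 (SE 0.24, n = 2), which is 2.41-fold lower, with an adjusted p of 0.0362 in limma. The call was lost without the EBC-1 array (adjusted p = 0.305) and when the spread came from the 2 arrays alone (0.324), and against the mean of the other groups the difference was -0.36 (0.472), in a range of 0.00452 to 0.472 over 10 alternatives.

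*S100A8* had a log2 ratio of 1.90 (0.27) in EBC-1, from an intensity of 527 to 1965. In SK-MES-1 the ratio was 1.07 (0.81), with intensities of 8.18 and 17.2, of which the control was not well above background, and it lay within the limits of the error. SK-MES-1 thus entered through the red channel alone, and with both channels required *S100A8* was not tested. With both arrays the mean was 1.49 (SE 0.22, adjusted p = 0.0399 in limma), a call that rests on 1 measured line. The SD of the 2 arrays was 0.58, and the SE also draws on the *S100A8* values in A549, whose controls were below background. Without EBC-1 the adjusted p was 0.184, with another background correction (normexp) the mean was 0.67 and the adjusted p 0.249, and with a variance prior taken from all genes the adjusted p was 0.055, in a range of 0.00983 to 0.324 over 8 alternatives.

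*S100A9*, the partner of *S100A8*, had a log2 ratio of 2.12 (0.28) in EBC-1, from an intensity of 1874 to 8153. It was not well above background in either channel on the other 7 arrays and was not tested. *S100A12*, which lies between these genes on the chromosome, encodes another S100 protein of myeloid cells and is named here after its values were seen, was at least 4.38-fold and 1.98-fold higher by its 2 probes in transfected EBC-1 cells, with a control below background. It had no value on any other array. EBC-1 has 1 array, so these values have no replicate.

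*S100A14*, a member expressed in epithelia, had a log2 ratio of -1.01 (0.22) in EBC-1, with intensities of 1979.5 and 982. In SK-MES-1, where its control was not well above background, its ratio was -0.23 (0.52), and the group mean of -0.62 did not pass (adjusted p = 0.167). *S100A11*, which binds annexin A1, stood at -0.05 (0.14) in SK-MES-1 and 0.71 (0.15) in EBC-1, where its probes gave 0.74 and 0.69. Its mean of 0.33 did not pass (adjusted p = 0.244), and with EBC-1 alone in the group it did (0.024). *S100A4* was at -0.63 (0.22) and -0.38 (0.21), with a mean of -0.50 (adjusted p = 0.111).

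*S100A6*, known as calcyclin, had ratios of -0.12 in EBC-1 and 0.15 in the other line. *S100A13*, which helps to carry FGF1 and IL1A out of cells, had 0.08 and 0.17, and *S100A16* had 0.07 and -0.24. All 6 of these values lay within the 95% limits of the software error. *S100P* pointed in opposite directions, at -0.63 (0.25) in SK-MES-1 and 0.59 (0.34) in EBC-1, at low intensities of 60.9 to 101.

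Of the 9 members tested, 1 was called lower and 1 higher, and 7 were not called. Over all 14229 genes, 2.9% were called lower and 2.47% higher. The median of the tested members was -0.02, and that of all genes was 0.04. On the EBC-1 array, 2 of 10 members lay below -1 (*S100A2* and *S100A14*) and 2 above 1 (*S100A8* and *S100A9*), against 6.04% and 5.96% of 14759 genes. On the SK-MES-1 array, 0 of 9 lay below -1 and 1 above 1 (*S100A8*, over a control below background), against 1.27% and 2.57% of 16176 genes. A count of 1 in 9 is a single gene and says nothing of the family.

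**Figure D2:**
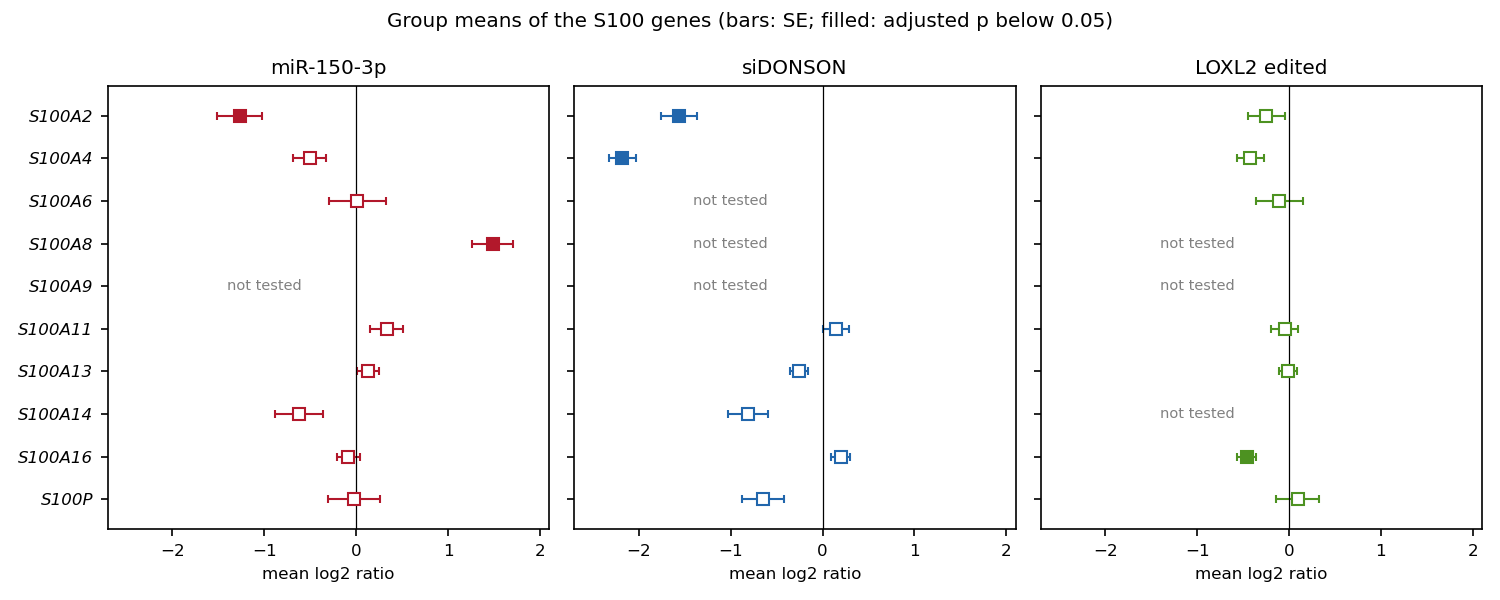
Mean log2 ratio (x axis) of each S100 gene (y axis) in the *miR-150-3p*, siDONSON and *LOXL2* edited groups (panels). Squares are limma group means, bars are SE, and filled squares have an adjusted p below 0.05. The filled squares are *S100A2* and *S100A8* with *miR-150-3p* (the latter with 1 of 2 controls below background), *S100A2* and *S100A4* with siDONSON, and *S100A16* after *LOXL2* editing.

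The *DONSON* siRNAs in SBC-3 cells gave the lowest ratios of these genes in the series. *S100A4* (4.52-fold) and *S100A2* (2.95-fold) fell, with ratios below -1 for each of the 3 siRNAs, and so did *S100A3* (3.52-fold), which lies between them. *S100A4*, a protein that binds nonmuscle myosin and is known from metastatic cells, had log2 ratios of -1.86 (0.27), -2.61 (0.32) and -2.07 (0.28) with siDONSON-1, -2 and -3. The processed intensity was 1522, 1305 and 1382 in the controls, and 420, 214 and 330 in the transfected cells. All 3 arrays lay below every value of *S100A4* on the other 5 arrays. The group mean was -2.18 (SE 0.14, n = 3), which is 4.52-fold lower, with an adjusted p of 0.000929 in limma.

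This call held under all 11 alternatives tried, with an adjusted p of 0.000249 to 0.0371 and a mean of -2.34 to -1.30. The mean of -1.30 came from the normexp background correction, which adds an offset to dim signals. Against the mean of the other 2 groups, *S100A4* was lower by 1.72 on the log2 scale in siDONSON cells (-1.72, SE 0.18, adjusted p = 0.00624 in limma). The groups differ in cell line as well as in treatment, so no contrast between groups in this report can tell these apart.

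*S100A2* had log2 ratios of -1.07 (0.23), -2.17 (0.29) and -1.45 (0.25). The control intensity was 780, 713 and 682, and that of the transfected cells was 371, 159 and 250. The mean of -1.56 (SE 0.20, n = 3) was 2.95-fold lower, with an adjusted p of 0.0109 in limma. Its values overlapped with those of the *miR-150-3p* arrays, and the difference from the mean of the other groups was -0.80 (SE 0.25, adjusted p = 0.0933). The call was lost without siDONSON-3 (adjusted p = 0.0559) and with the spread of the 3 arrays alone (0.102), in a range of 0.0048 to 0.102. With normexp the mean was -0.77.

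siDONSON-2 gave the lowest value of *S100A2*, *S100A4* and *S100A13* among the 3 siRNAs, siDONSON-3 that of *S100A11*, *S100A14* and *S100P*, and siDONSON-1 that of *S100A16*. The ratio of *DONSON* was closest to 0 with siDONSON-2, and a link between it and these values was not tested. *S100A14* was at -0.37 (0.28), -0.84 (0.30) and -1.22 (0.33), with a mean of -0.81 and an adjusted p of 0.0693. *S100P* was at -0.56 (0.25), -0.28 (0.23) and -1.11 (0.26), with a mean of -0.65 (adjusted p = 0.126). Both lay below 0 on 3 of 3 arrays and did not pass the test, at intensities of 37.3 to 189.

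*S100A13* was at -0.10, -0.51 and -0.16 (adjusted p = 0.157). *S100A16* was at 0.12, 0.33 and 0.15 (adjusted p = 0.263), above 0 on 3 of 3 arrays and within the software's limits on each. *S100A11* was at 0.31, 0.15 and -0.02 (adjusted p = 0.556). *S100A6*, a protein that binds the ubiquitin ligase partner CACYBP, was near background in SBC-3 cells and was not tested. It stood at -0.52 (0.40) with siDONSON-1 and -2.03 (0.43) with siDONSON-2, where the transfected RNA was not well above background, and had no value with siDONSON-3. With dim probes kept, *S100A6* was also called lower, but with normexp its ratios were only -0.11, -0.16 and -0.14 with siDONSON-1, -2 and -3. *S100A8* had 1 value, 0.26 (0.52), with the control below background, and *S100A9* had none.

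Of the 7 members tested, 2 were called lower (28.6%) and 0 higher, and 5 members had a p below 0.05 before adjustment, all lower. Over all 14453 genes, 3.21% were called lower and 4.01% higher. Before adjustment, 3771 of these genes had a p below 0.05 in limma, in either direction. Centered on each array's median, the calls over all genes were 533 lower and 443 higher, in place of 464 and 579. The median of the tested members was -0.65 and that of all genes 0.03.

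**Figure D3:**
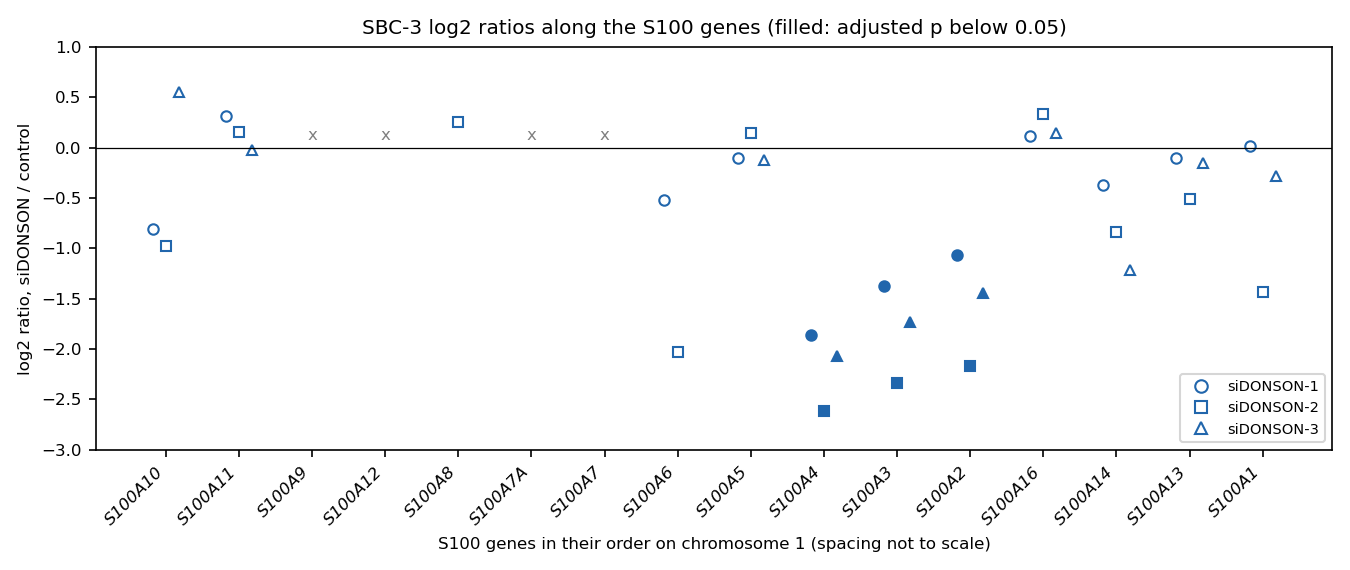
Log2 ratio of siDONSON over control in SBC-3 cells (y axis) for the 16 S100 genes of chromosome 1 in their chromosomal order (x axis, spacing not to scale). Symbols are the 3 siRNAs, filled symbols belong to genes with an adjusted p below 0.05, and x marks a gene with no value. *S100A4*, *S100A3* and *S100A2* lie side by side with means of -2.18, -1.81 and -1.56, between *S100A5* and *S100A16*, which lie near 0.

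Along the chromosome, *S100A4*, *S100A3* and *S100A2* follow each other with no other protein-coding gene between them. *S100A3*, a protein known from the hair cuticle, had log2 ratios of -1.38, -2.34 and -1.73 with the 3 siRNAs (mean -1.81, SE 0.21, adjusted p = 0.00918 in limma). All 3 genes had their highest ratio with siDONSON-1 and their lowest with siDONSON-2. *S100A5*, the neighbor on one side, was at -0.10, 0.15 and -0.12 (adjusted p = 0.906), and *S100A16*, on the other side, is given above. The order of the genes was read from RefSeq names and is not a measurement of these cells.

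After *LOXL2* editing, the means of the tested members in A549 cells lay between -0.46 and 0.09. *S100A16*, a widely expressed member, was at -0.61 (0.21), -0.43 (0.21) and -0.33 (0.21) in A549-GE1, -2 and -3, from control intensities of 10934, 10666 and 11041 to 7140, 7910 and 8755. The 3 ratios lay below all 5 values of *S100A16* on the other arrays. The ratio of A549-GE3 lay within the 95% limits of the software error, as did the nearest other value, -0.24 (0.21) in SK-MES-1. The mean was -0.46 (SE 0.10, n = 3), which is 1.38-fold lower, with an adjusted p of 0.026 in limma. The call was lost without any 1 of the 3 arrays (adjusted p = 0.169 without A549-GE1, 0.133 without A549-GE2 and 0.0901 without A549-GE3), in a range of 0.00803 to 0.169. The difference from the mean of the other groups was -0.52 (SE 0.13, adjusted p = 0.0555).

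*S100A4* was at -0.29, -0.43 and -0.54 in A549 cells, with a mean of -0.42 (SE 0.15, adjusted p = 0.0946). It passed with normexp (adjusted p = 0.00759), with the spread of the 3 A549 arrays alone (0.0207), and, with the sign turned, against the mean of the other groups (0.92, adjusted p = 0.0285), in a range of 0.00759 to 0.342. *S100A2* was at -0.29, -0.16 and -0.29, within the limits of the error on each array. Against the other groups it was higher by 1.17 (SE 0.25, adjusted p = 0.0337), where both other groups had means below -1. *S100A3*, which lies between *S100A4* and *S100A2*, was at -0.73, -0.58 and -0.54 (mean -0.62, SE 0.21, adjusted p = 0.0905 in limma). All 3 of these neighbors were thus below 0 on each A549 array too, though none was called in the main fit. With *miR-150-3p* they split in EBC-1, where *S100A3* had a log2 ratio of 0.56 against -1.55 for *S100A2* and -0.63 for *S100A4*. On the SK-MES-1 array all 3 lay below 0, *S100A3* with -0.34. The group mean of *S100A3* with *miR-150-3p* was 0.11 (SE 0.26, adjusted p = 0.811 in limma).

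*S100A6*, *S100A11*, *S100A13* and *S100P* had means between -0.11 and 0.09 and adjusted p-values of 0.816 to 0.949. *S100A8* was at 0.86 (0.67) and 0.81 (0.56) and *S100A14* at 0.17 and -0.33, each on 2 of 3 arrays with the control below background. *S100A9* had no value. Of the 7 members tested, 1 was called lower (14.3%) and 0 higher, while 2 had a p below 0.05 before adjustment, both lower. Over all 15531 genes, 6.77% were called lower and 7.58% higher. Before adjustment, 4817 of these genes had a p below 0.05 in limma, in either direction. The median of the members was -0.11 and that of all genes 0.02.

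Of the members, 6 had a value on all 8 arrays, which gives 15 pairs. The 3 most alike over the arrays were *S100A4* with *S100A13* (Pearson r = 0.855), *S100A2* with *S100A4* (0.766) and *S100A2* with *S100A13* (0.591). The 3 least alike were *S100A2* with *S100A16* (-0.924), *S100A4* with *S100A16* (-0.860) and *S100A13* with *S100A16* (-0.598). The 8 points share 4 cell lines and 3 treatments, so these values describe the arrays and are not tested.

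The control channels show which members each line used. Levels are log2 green signals after Aquantile normalization between arrays and are compared for 1 probe at a time. EBC-1 and SK-MES-1 have 1 control array each, so their levels have no spread. SBC-3 and A549 have 3 each, which may be 1 RNA labeled 3 times.

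*S100A2* had its highest control level in SK-MES-1 (16.24), followed by EBC-1 (11.98), 19.2-fold lower. SBC-3 (9.49 ± 0.07, SD, n = 3) and A549 (9.48 ± 0.05) overlapped. *S100A8* was measured in EBC-1 only, at 8.97, and was at least 13.7-fold higher there than in SBC-3, 17.1-fold than in A549 and 18.3-fold than in SK-MES-1. *S100A9* was likewise measured in EBC-1 only, at 10.65, at least 44.0-fold above each other line. The squamous line SK-MES-1 thus had the highest *S100A2* and no measured *S100A8* or *S100A9*.

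*S100A14* was at 10.85 in EBC-1, 6.38 ± 0.07 in SBC-3, and not well above background in A549 or SK-MES-1. EBC-1 was 22.2-fold above SBC-3 and at least 63.0-fold above A549 and 67.4-fold above SK-MES-1. *S100P* showed another order, with 14.36 ± 0.02 in A549, 7.40 ± 0.17 in SBC-3, 6.70 in SK-MES-1 and 5.92 in EBC-1. *S100A4* was highest in A549 (14.98 ± 0.01), then SK-MES-1 (14.24), SBC-3 (10.46 ± 0.03) and EBC-1 (8.77), so that the squamous lines differed 44.2-fold.

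**Figure D4:**
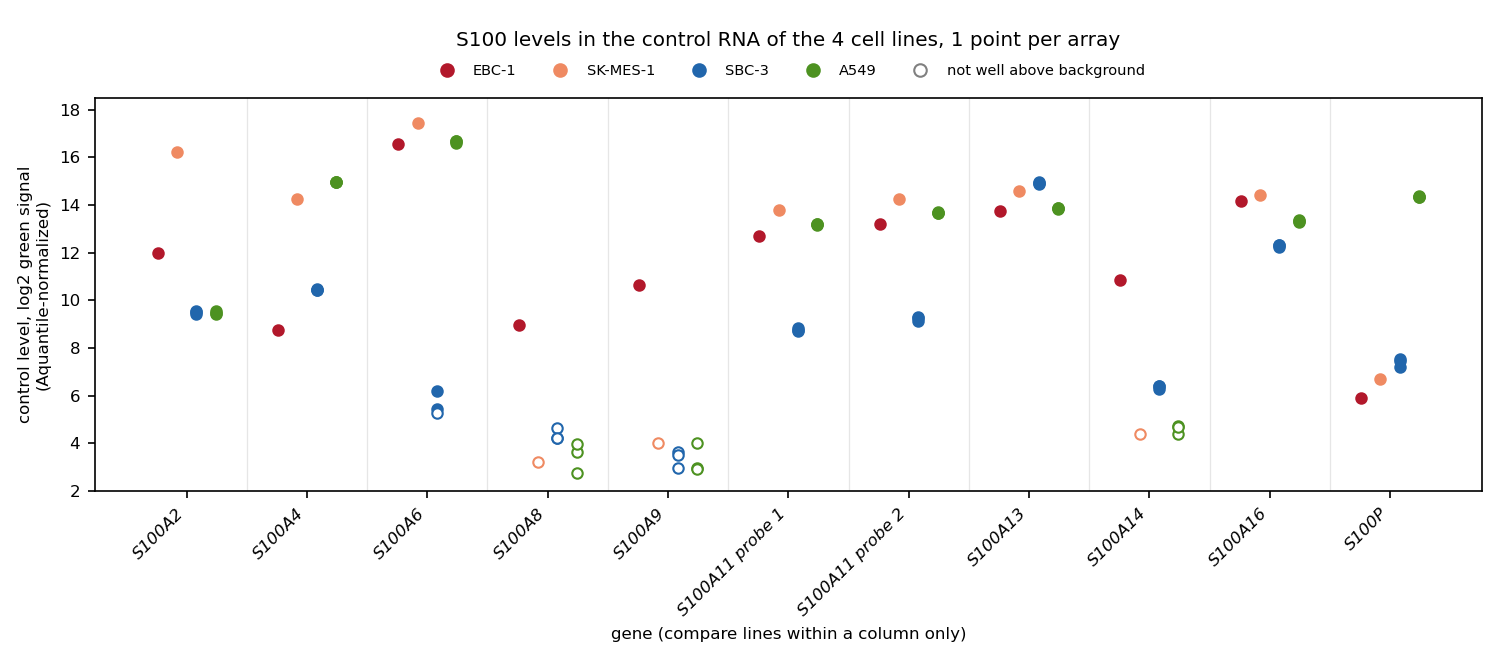
Control level of each S100 gene as log2 green signal after Aquantile normalization (y axis), for the 11 probes (x axis), with a point for each array colored by cell line. Open points were not well above background, and levels are comparable between lines within a column only. *S100A6* lies between 16.56 and 17.45 in EBC-1, A549 and SK-MES-1 and between 5.29 and 6.21 in SBC-3, and *S100A8* and *S100A9* are filled in EBC-1 only.

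*S100A6* was high in SK-MES-1 (17.45), A549 (16.66 ± 0.04) and EBC-1 (16.56) and near background in SBC-3 (5.65 ± 0.49, well above background on 2 of 3 arrays). EBC-1 lay 0.10 below the A549 mean, against an SD of 0.04. Both *S100A11* probes gave the order SK-MES-1, A549, EBC-1 and SBC-3, with 13.77, 13.20, 12.72 and 8.76 for one probe and 14.24, 13.68, 13.21 and 9.24 for the other. *S100A16* was at 14.44 in SK-MES-1, 14.16 in EBC-1, 13.32 ± 0.03 in A549 and 12.30 ± 0.05 in SBC-3. *S100A13* was the member with its highest level in SBC-3 (14.92 ± 0.03), above SK-MES-1 (14.58), A549 (13.86 ± 0.02) and EBC-1 (13.73).

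Between SBC-3 and A549 the levels were tested by limma. Of the 11 member probes, 6 were lower in SBC-3 and 2 higher, where 24.3% of all 58184 probes were lower and 20.2% higher. Many of all probes were dim in both lines. With only probes above background in 1 of the lines, 10890 of 26089 were lower and 10694 higher, a larger share in each direction. *S100A6* was lowest, by a log2 difference of -11.02 (SE 0.25, 2071-fold, adjusted p = 2.51e-06), followed by *S100P* (-6.96, SE 0.09, 124-fold), *S100A4* (-4.52, SE 0.04, 22.9-fold), both *S100A11* probes (-4.43 and -4.44, 21.6-fold and 21.7-fold) and *S100A16* (-1.03, SE 0.05, 2.04-fold). *S100A6* was well above background on 2 of 3 SBC-3 arrays, and under normexp the differences of *S100A6* and *S100P* were -7.88 and -5.05, and those of the *S100A11* probes -3.49 and -3.83. *S100A13* was higher in SBC-3 by 1.06 (SE 0.04, 2.09-fold, adjusted p = 1.47e-05). *S100A14* was at least 2.84-fold higher (1.77, SE 0.11, adjusted p = 9.79e-05), with a difference of 0.21 under normexp. *S100A2* did not differ beyond its spread (0.01, SE 0.06, adjusted p = 0.877), and *S100A8* and *S100A9* were below background in both lines.

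These 6 lower and 2 higher calls were made under all alternatives, including a scaling to the 75th percentile. That scaling moved the median difference of all probes from -0.09 to 0.38 and turned the split of all probes from 14145 lower and 11777 higher to 12107 and 25599.

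The lines were checked against their markers. In EBC-1, 1 of 7 squamous markers was well above background (*SOX2*), and *KRT5*, *KRT6A*, *KRT14*, *TP63*, *DSG3* and *PKP1* were not. SK-MES-1 had 4 of 7 (*KRT14*, *TP63*, *PKP1* and *SOX2*). SBC-3 had *NEUROD1*, *CHGA* and *SYP*, 3 of 7 small cell markers, and not *INSM1* or *NCAM1*. A549 had 3 of 7 adenocarcinoma markers (*NAPSA*, *KRT7* and *MUC1*), and not *NKX2-1*. These lists did not separate the lines. EBC-1 also had 3 of 7 adenocarcinoma markers and SK-MES-1 had 4, the *NAPSA* probe was at 6.37 in EBC-1 and 6.05 in A549, and *CHGA* was at 8.10 in A549 and 6.25 in SBC-3. *SOX2* was highest in SBC-3 (14.29), followed by A549 (9.18), EBC-1 (7.61) and SK-MES-1 (6.50). SBC-3 had 2 of 7 squamous markers (*TP63* and *SOX2*), with *TP63* at 6.46 there and 5.33 in SK-MES-1. In SK-MES-1, 1 probe of *NCAM1* was well above background (8.38). *KRT14*, a keratin of basal squamous cells, had a log2 ratio of 1.13 in SK-MES-1, and 1.77 in EBC-1 over a control below background. Its mean over both arrays passed the test (adjusted p = 0.0295), the 1 call among 3 squamous markers tested, and its part in the *S100A2* and *S100A8* values was not tested. The summed control level of the 7 squamous markers was 20223 in SBC-3, 911 in SK-MES-1, 676 in A549 and 273 in EBC-1. This sum adds different probes, dim ones included, and did not rank the squamous lines first. *NAPSA* rose in the *LOXL2* edited cells by 0.999 on the log2 scale (adjusted p = 0.0413). No other marker was called in any group.

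Of 11 further S100 genes, 10 were on the array and 4 could be tested in each group. *S100A3* with siDONSON was the 1 call among them, and in each of the other groups 1 gene had a p below 0.05 before adjustment. *S100A10*, which binds annexin A2, was at -0.81, -0.98 and 0.56 with the 3 siRNAs (adjusted p = 0.351). *S100A7*, known as psoriasin, was at 0.29 in SK-MES-1 and 1.44 in EBC-1 with controls below background (adjusted p = 0.158). The medians of the 4 tested genes were 0.05 with *miR-150-3p*, -0.49 with siDONSON and 0.01 after *LOXL2* editing. Of the 7 fused S100-type genes such as *FLG*, none could be tested in any group (0). Of 18 genes of the epidermal differentiation complex, 8 were tested in each group and 0 were called by limma, with medians of -0.21, -0.02 and 0.19. In each group 1 of these 8 had a p below 0.05 before adjustment. Over all genes tested, 4266 of 14229 with *miR-150-3p*, 3771 of 14453 with siDONSON and 4817 of 15531 after *LOXL2* editing had such a p.

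Of 22 genes for binding partners, receptors and targets of S100 proteins, 21 were tested with *miR-150-3p* and 0 were called by limma. Before adjustment 3 had a p below 0.05, as did 4266 of all 14229 genes. With siDONSON, 18 were tested and 2 were lower, where 3.21% of all genes were. Before adjustment 5 had a p below 0.05, as did 3771 of all 14453 genes. *ANXA6*, an annexin that binds S100 proteins, was at -0.62, -1.39 and -1.40 (mean -1.14, SE 0.16, adjusted p = 0.0141), and *SUGT1*, a cochaperone that binds S100A6, was at -0.34, -0.37 and -0.41 (mean -0.37, adjusted p = 0.0464). After *LOXL2* editing, 19 were tested, 3 were higher, where 7.58% of all genes were, and 0 were lower. Before adjustment 7 had a p below 0.05, as did 4817 of all 15531 genes. Those called higher by limma included *MYL9*, a myosin light chain (mean 1.38, SE 0.33, adjusted p = 0.0325), and *BSG*, a receptor of S100A9 (0.37, adjusted p = 0.0472). The medians of the partners were -0.01, 0.09 and 0.03 in the 3 groups, where those of all genes were 0.04, 0.03 and 0.02.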

How the data were processed

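RNA of treated (Cy5) and control (Cy3) cells was hybridized on 8 two-color Agilent arrays, all on 1 slide. The authors deposited the output of Feature Extraction 12.1.1.1 (grid build hg19), whose processed intensities are background-subtracted, detrended and dye-normalized, and which also holds a log10 ratio with its error. The log10 ratios of the deposited series table differ from these by 0. Log2 ratios were computed here from the deposited intensities, after leaving out control spots and 81 to 133 of 60901 marked spots per array. Spots of 1 probe were averaged, and probes were named through RefSeq accessions (31104 of 58201 matched). A gene is the mean of its probes well above background in at least 1 channel. limma 3.58.1 (R 4.3.3) fitted 3 groups to 8 arrays and tested each group mean against 0. A gene with a value on all 8 arrays had 5 residual degrees of freedom, and a gene with missing values had fewer. The variance prior came from the genes tested in the group. Control levels are green signals after Aquantile normalization, fitted by probe over 4 lines (4 residual degrees of freedom). The files used hold no mean spot signal, so the planned normexp alternative (offset 50, then loess) took median signals.

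Where 1 side was below background, the brighter mean was set against the lowest signal well above background on the array or the probe's own, whichever was higher, which gives an "at least" fold. Green channels of array pairs within a line differed by an SD of 0.133 to 0.147 (SBC-3) and 0.0886 to 0.0961 (A549), and red by 0.362 to 0.490 and 0.131 to 0.172, over 13175 probes above a log2 intensity of 8. If a control is 1 RNA, the tests leave out its own spread. A slide block could not be fitted.

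All 10 members are named. Of other lists, up to 4 genes past the threshold per group are named, with *DONSON* and *LOXL2* as label checks, and some genes of these lists are not reported here. The software's own p-value columns were not used. Members, lists and markers were chosen with earlier results of these data known. The alternative with a variance prior from all genes was chosen after seeing the data. The fits were tested on simulated data.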

Additional observations from a re-analysis of the deposited data

How the results depend on the processing

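No paired analysis was possible because the groups that share the numbers 1 to 3 (siDONSON and *LOXL2* edited) are different cell lines that are never compared as pairs, and each array already pairs treated with control RNA. Over all alternatives, single values of members kept their direction and their side of the threshold 68 times with *miR-150-3p* (8 lost the call, 1 gained it, 8 turned), 73 times with siDONSON (3 lost it), 64 times after *LOXL2* editing (4 lost it, 3 gained it, 5 turned) and 110 times for control levels (9 turned). The cause of the changes below was not tested, except that leaving out an array or testing more genes changes the test by construction.

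All genes called lower and higher with *miR-150-3p* (413 and 352) were 204 and 165 with the variance prior from all genes, 726 and 810 with normexp and loess, 134 and 64 with no filter on dim probes, 655 lower with both channels above background, 155 and 69 against the other groups, 0 and 0 with the spread of the group alone (1944 genes at an unadjusted p below 0.05), and 1 to 1550 and 0 to 1273 on leaving out an array. With siDONSON (464 and 579) they were 967 higher with normexp, 2133 lower with no filter, 385 higher against the other groups, 24 and 2 with the group's own spread, and 58 to 483 and 39 to 632 on leaving out an array. With *LOXL2* (1051 and 1178) they were 1856 higher with normexp, 3914 lower with no filter, 386 and 372 against the other groups, 2852 and 3021 with the own spread, and 208 to 270 and 262 to 323 on leaving out an array.

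With *miR-150-3p*, 0 members were called higher with the prior from all genes, normexp, both channels required, the other groups subtracted or the own spread (1 member at an unadjusted p below 0.05 with the prior from all genes, the other groups subtracted and the own spread, and 0 with normexp and both channels). *S100A8* was then at 1.49 (adjusted p = 0.055), 0.67 (0.249) and 1.49 (0.324) where tested. There were 0 called lower with no filter, the other groups subtracted or the own spread, where *S100A2* was at -1.27 (0.0541), -0.36 (0.472) and -1.27 (0.324), with 2, 0 and 2 members lower at an unadjusted p below 0.05 in limma. Without EBC-1 or SK-MES-1 there were 0 to 1 lower and 0 to 2 higher. With siDONSON, 1 member was lower against the other groups and with the own spread, and 1 to 2 on leaving out an array. With *LOXL2*, 2 members were lower with normexp, 3 with the own spread and 0 against the other groups (1 at an unadjusted p below 0.05), where 2 were higher. There was 1 higher with no filter (*S100A8*), and 0 lower in limma on leaving out any array (1 to 2 at an unadjusted p below 0.05).

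Signs turned with *miR-150-3p* for *S100A6* when centered (-0.020), and against the other groups for *S100A4* (0.79), *S100A16* (0.048) and *S100P* (0.26). Without SK-MES-1 or without EBC-1, *S100A6* was -0.12 or 0.15, *S100A11* 0.71 or -0.047, *S100A16* 0.071 or -0.24 and *S100P* 0.59 or -0.63. After *LOXL2* editing, signs turned for *S100A13* with normexp (0.0051) and against the other groups (0.051), where *S100A2* (1.17) and *S100A4* (0.92) turned too. *S100A11* was -0.076 to 0.0028 on leaving out an array. The difference of *S100A2* between SBC-3 and A549 was -0.039 with the 75th percentile, which called 25599 probes higher in SBC-3, and -0.013 to 0.050 on leaving out an array, and that of *S100A9* was -0.11 to 0.42.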
